A study of Mus musculus with 12 samples.

Results

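The genes described here encode subunits of complexes I, II and III of the mitochondrial respiratory chain and of the ATP synthase, read as mRNA in subcutaneous white (scWAT) and brown (BAT) adipose tissue of WT and Lr11-/- mice. A gene was taken where its symbol began with Ndufa, Ndufb, Ndufs or Ndufv and a digit, was Sdha, Sdhb, Sdhc or Sdhd, or began with Uqcr or Atp5. Of 82 such symbols in the RefSeq gene table, 64 had a probe on the array, among 20660 genes with a named probe in all. They comprised 33 genes of complex I, 4 of complex II, 8 of complex III and 17 of the ATP synthase, with Ndufa4 and Ndufa4l2 kept apart because Ndufa4 carries a complex I name but is known as a subunit of complex IV. The 18 symbols without a probe were 15 pseudogenes and the 3 protein-coding genes Ndufb1, Ndufb4b and Ndufb4c. All 64 genes were well above background on all 12 arrays, so each entered the test, and each was read from its brightest probe.

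The arrays measured 4 groups of 3 samples each, scWAT and BAT of WT mice and the same 2 depots of Lr11-/- mice. All came from male C57Bl6/J mice aged 12 weeks, the WT mice being littermates of mice that lacked Lr11 (gene symbol Sorl1), a sorting receptor of the low-density lipoprotein receptor family whose ectodomain is also shed into the blood. Every group, controls included, had been fed a high-fat diet with 60% of calories from fat, which the labels give both as lasting 4 weeks and as starting at weaning, and these statements were not reconciled here. The labels do not say whether scWAT and BAT came from the same mice or what separates replicates, so p-values measure only the spread between these samples, which may be technical.

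The respiratory chain passes electrons from NADH (through complex I) and from succinate (through complex II) by way of ubiquinone to complex III, then through cytochrome c to complex IV, and complexes I, III and IV pump protons out of the matrix. In most tissues those protons return through the ATP synthase, whose membrane ring is built of c subunits and whose F1 head makes ATP. Brown fat is known for mitochondria rich in respiratory chain and in uncoupling protein 1 but poor in ATP synthase, and the c subunit gene Atp5g1 is known as a limiting factor for the amount of ATP synthase assembled there.

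The 3 c subunit genes encode the same mature protein from separate promoters, and their mRNAs did not move together in these samples, so their start-site windows are shown beside those of Uqcrc1 and Sdha, genes of complexes III and II with large differences. Each window runs from 250 bases before to 50 after the start site in RefSeq for GRCm38.p6, printed 5′ to 3′ on the strand of the gene. Capitals mark exact matches, on either strand, to the NRF-1 core GCGCANGCG, the ERR element TCAAGGTCA, the ETS/GABP element CCGGAAGT or the YY1 element AAGATGGCG, and matches on both strands that overlap form a single run of capitals. The windows are chr11:96075582-96075881, chr15:102670998-102671297, chr2:73911277-73911576 and chr13:74350191-74350490 on the minus strand and chr9:108936398-108936697 on the plus strand.
Atp5g1: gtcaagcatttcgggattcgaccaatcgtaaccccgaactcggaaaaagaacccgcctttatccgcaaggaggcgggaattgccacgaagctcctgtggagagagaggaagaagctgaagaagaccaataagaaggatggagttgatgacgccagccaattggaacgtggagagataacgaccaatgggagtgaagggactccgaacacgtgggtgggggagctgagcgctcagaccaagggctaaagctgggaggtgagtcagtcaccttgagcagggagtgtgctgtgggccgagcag
Atp5g2: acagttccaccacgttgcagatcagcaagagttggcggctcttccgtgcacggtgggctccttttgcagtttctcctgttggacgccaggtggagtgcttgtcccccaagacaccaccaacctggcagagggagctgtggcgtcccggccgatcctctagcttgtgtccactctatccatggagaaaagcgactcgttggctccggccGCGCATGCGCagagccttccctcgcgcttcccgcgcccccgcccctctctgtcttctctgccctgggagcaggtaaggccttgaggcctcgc
Atp5g3: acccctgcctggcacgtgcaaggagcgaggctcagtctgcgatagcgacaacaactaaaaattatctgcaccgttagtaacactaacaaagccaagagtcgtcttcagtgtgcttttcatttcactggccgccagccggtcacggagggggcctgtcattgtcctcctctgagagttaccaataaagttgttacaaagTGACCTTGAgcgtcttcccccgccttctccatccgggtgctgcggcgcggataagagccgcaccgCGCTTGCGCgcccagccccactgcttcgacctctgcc
Uqcrc1: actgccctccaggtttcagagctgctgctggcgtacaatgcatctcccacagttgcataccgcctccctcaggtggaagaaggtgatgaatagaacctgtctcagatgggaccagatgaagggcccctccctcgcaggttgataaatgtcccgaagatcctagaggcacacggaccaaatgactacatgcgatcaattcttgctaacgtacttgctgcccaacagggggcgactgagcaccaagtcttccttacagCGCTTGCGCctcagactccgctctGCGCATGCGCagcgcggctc
Sdha: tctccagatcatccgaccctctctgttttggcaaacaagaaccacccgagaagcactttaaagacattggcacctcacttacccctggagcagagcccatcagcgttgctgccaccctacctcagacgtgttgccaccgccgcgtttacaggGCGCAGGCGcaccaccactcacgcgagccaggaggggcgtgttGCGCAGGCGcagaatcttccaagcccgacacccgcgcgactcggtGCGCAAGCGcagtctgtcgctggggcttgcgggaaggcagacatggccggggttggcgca
The Atp5g1 window held none of the 4 motifs, which says only that these letters were not in these 300 bases. The Atp5g2 window held the NRF-1 core once as a palindrome, the Atp5g3 window held an ERR element and an NRF-1 core, and the Uqcrc1 and Sdha windows held NRF-1 cores and no other of the 4 motifs. Other genes with large differences had windows, not shown, with none of the 4 motifs. Among them were Sdhb, Uqcrfs1 and Ndufa10, with log2 differences between genotypes in scWAT of 2.34, 2.52 and 2.71.

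All levels below are log2 signals: log2 of the processed intensity of the probe minus that of the 75th percentile of its array, so that 0 is the 75th percentile. Levels of different probes are not comparable, and only differences of a probe between arrays are read. No spot was saturated on any array. The targeted gene Sorl1 had log2 signals of 1.11, 1.14 and 1.32 on the WT scWAT arrays, -3.39, -3.36 and -2.69 in Lr11-/- scWAT, 0.88, 1.38 and 0.26 in WT BAT and -3.77, -2.27 and -2.32 in Lr11-/- BAT, with no overlap between genotypes in either depot. All 8 adipocyte markers were well above background on every array. Skeletal muscle markers stood apart on 5 arrays, and 9 of the 15 listed passed the filter on dim probes. Their summed linear signal, relative to the 75th percentile, was 8353 on WT scWAT array 3, 6958 on Lr11-/- scWAT array 1, 2452 and 2000.4 on WT BAT arrays 1 and 3 and 1365 on Lr11-/- BAT array 1, against 5.52 to 43.0 on the other 7. The epithelial sum was 9.5 and 48.4 on the scWAT arrays among these 5 and at most 0.96 elsewhere. WT scWAT array 2 had the lowest adipocyte sum (426, the other 11 arrays 1169 to 2661) and the highest macrophage sum (363, the others 54.6 to 135).

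In scWAT, genes of all 4 complexes rose in Lr11-/- relative to WT mice, and none fell. Of the 64 genes, 27 rose past an adjusted p of 0.05 and 0 fell, with a median log2 difference of 1.78 (3.43-fold), where 3.32% of all 32118 tested probes were called higher and their median was 0.045. By complex, the calls were 13 of 33 in complex I, 3 of 4 in complex II, 6 of 8 in complex III and 5 of 17 in the ATP synthase, with median log2 differences of 1.84, 2.0, 1.85 and 1.48. In 40 of 64 genes every Lr11-/- scWAT array lay above every WT scWAT array, a pattern found in 11.7% of all tested probes. The median log2 signal over the 64 genes was 5.91, 5.04 and 6.46 on the WT arrays, for a group mean of 5.81 ± 0.71 (SD, n = 3), and 6.57, 7.85 and 7.87 on the Lr11-/- arrays, for a group mean of 7.43 ± 0.75. The unadjusted p was under 0.05 for 60 of the 64 genes against 27.6% of all tested probes. Of 19 genes with more than 1 probe, the probes had the same sign of difference in all 19 and fell on different sides of the threshold in 4.

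**Figure D1:**
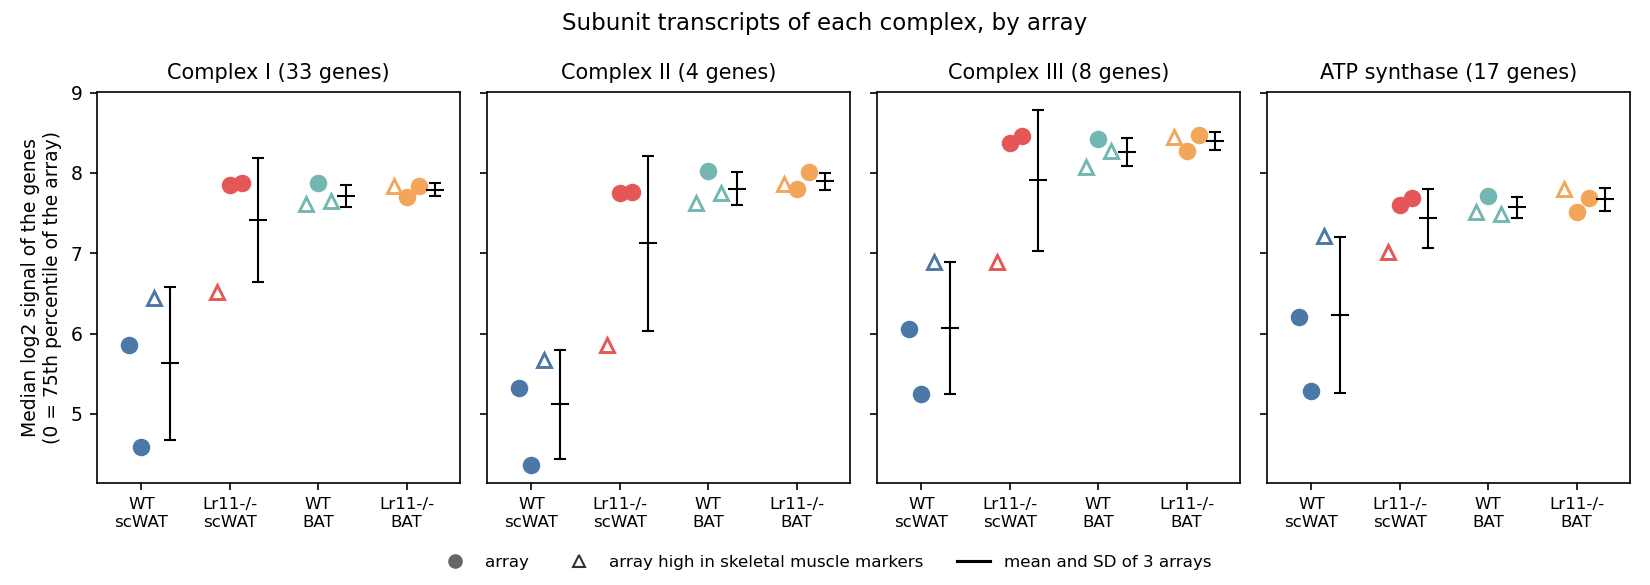
Median log2 signal over the genes of each complex (y axis, 0 is the 75th percentile of the array) for each array of the 4 groups (x axis). Filled circles and open triangles are single arrays, triangles being the 5 arrays high in skeletal muscle markers, and black bars are the mean and SD of 3 arrays. Complex I medians were 5.86, 4.58 and 6.44 in WT scWAT against 6.52, 7.85 and 7.87 in Lr11-/- scWAT, and lay between 7.61 and 7.87 on the 6 BAT arrays.

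Markers of other cell types and of adipocytes moved with genotype in scWAT as well. The 8 adipocyte markers had a median log2 difference of 1.70, 7 of them above 0 and 0 called, with summed signals of 426 to 1950.5 in WT and 1732 to 2661 in Lr11-/- scWAT. The 7 macrophage markers with a probe had a median of -0.94, all 7 below 0 and 0 called, and their sums of 128 to 363 in WT and 91.3 to 101 in Lr11-/- scWAT did not overlap. The part of these shifts in the differences of the 64 genes was not tested.

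Complex I is the NADH dehydrogenase of the chain. Ndufs1, which carries iron-sulphur clusters of its electron path, read 4.64, 3.48 and 5.45 on the WT scWAT arrays and 5.87, 7.38 and 7.57 on the Lr11-/- scWAT arrays. The groups did not overlap, Lr11-/- array 1 lying just above WT array 3 and Lr11-/- arrays 2 and 3 well above it. The difference was 2.42 ± 0.51 (SE; 5.35-fold, adjusted p = 0.0388). Ndufv1, the subunit that binds NADH and flavin, read 5.96, 4.41 and 6.76 in WT scWAT against 6.69, 8.60 and 8.73, where Lr11-/- array 1 lay below WT array 3. Its difference of 2.30 ± 0.61 had an adjusted p of 0.0538 and was not called. Ndufa10, an accessory subunit, differed most in this complex, reading 3.56, 1.91 and 4.06 in WT against 4.59, 6.42 and 6.64 in Lr11-/- mice, a difference of 2.71 ± 0.60 (6.53-fold, adjusted p = 0.0412). At the other end were the accessory subunits Ndufa2, with 1.25 (adjusted p = 0.0543), and Ndufb7, with 1.28 (adjusted p = 0.082), neither of them called. Other called genes of the complex were Ndufa1, Ndufa12, Ndufa3, Ndufa6, Ndufa7, Ndufa9, Ndufb8, Ndufs6, Ndufs8 and Ndufv2, with differences from 1.43 (Ndufa7, adjusted p = 0.0452) to 2.18 (Ndufs8, adjusted p = 0.0423). The 20 genes of the complex without a call had adjusted p from 0.0504 (Ndufs7, difference 2.0) to 0.0917 (Ndufb3, difference 1.57), and all 33 differences were above 0.

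Complex II is succinate dehydrogenase, which the citric acid cycle shares with the chain. Its flavoprotein Sdha read 5.06, 4.0 and 5.48 in WT against 5.74, 7.66 and 7.65 in Lr11-/- scWAT. Its iron-sulphur subunit Sdhb read 5.89, 5.41 and 7.03 against 7.11, 9.15 and 9.09. Both rose without overlap of the groups, Sdha by 2.17 ± 0.51 (adjusted p = 0.0437) and Sdhb by 2.34 ± 0.54 (adjusted p = 0.0426). Of the membrane anchors, Sdhd rose by 1.84 ± 0.47 (adjusted p = 0.0498), and Sdhc differed by 1.72 ± 0.49 with overlapping groups (adjusted p = 0.065).

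Complex III oxidises ubiquinol and reduces cytochrome c. The core protein gene Uqcrc1 read 4.05, 2.5 and 4.67 in WT against 5.21, 7.09 and 7.22 in Lr11-/- scWAT, the largest difference of the 64 genes in this comparison at 2.77 ± 0.59 (6.8-fold, adjusted p = 0.0393). Uqcrc2, the other core protein, rose by 2.59 ± 0.59 (adjusted p = 0.0425), and Uqcrfs1, the Rieske iron-sulphur protein, by 2.52 ± 0.58 (adjusted p = 0.0426). In all 3 genes WT array 2 was the lowest scWAT array, Lr11-/- arrays 2 and 3 the highest, and the groups did not overlap. The smallest differences in the complex were those of Uqcrh, the hinge protein, which still rose by 1.70 ± 0.39 (adjusted p = 0.0426), and of Uqcr10, at 1.79 ± 0.49 (adjusted p = 0.0582).

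The ATP synthase genes varied most among themselves, with differences from -1.53 to 2.01. Atp5a1, the alpha subunit of the F1 head, read 6.48, 5.55 and 7.53 in WT against 7.02, 8.79 and 8.85 in Lr11-/- scWAT. The catalytic beta subunit, Atp5b, read 7.85, 6.41 and 8.35 against 8.28, 9.78 and 9.88. In both genes Lr11-/- array 1 lay inside the WT range, and neither difference passed the test (1.70 ± 0.54, adjusted p = 0.0815; 1.77 ± 0.51, adjusted p = 0.0654). The genes that did rise were Atp5d, the F1 delta subunit, by 2.01 ± 0.42 (adjusted p = 0.0384), Atp5j2, the f subunit, by 1.96 ± 0.43 (adjusted p = 0.0414), Atp5c1, the gamma subunit of the rotor, by 1.48 (adjusted p = 0.0364), Atp5e, the epsilon subunit, by 1.53 (adjusted p = 0.0356), and Atp5k, the e subunit, by 1.70 (adjusted p = 0.0498). Atp5o, the subunit that confers oligomycin sensitivity, differed by 1.66 without overlap of the groups (adjusted p = 0.0633), and Atp5h and Atp5l, subunits d and g, by 1.44 and 1.0 with overlap (adjusted p = 0.097 and 0.14). Without the 3 c subunit genes, the remaining 14 ATP synthase genes had a median of 1.51 and a range of 0.48 to 2.01.

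**Figure D2:**
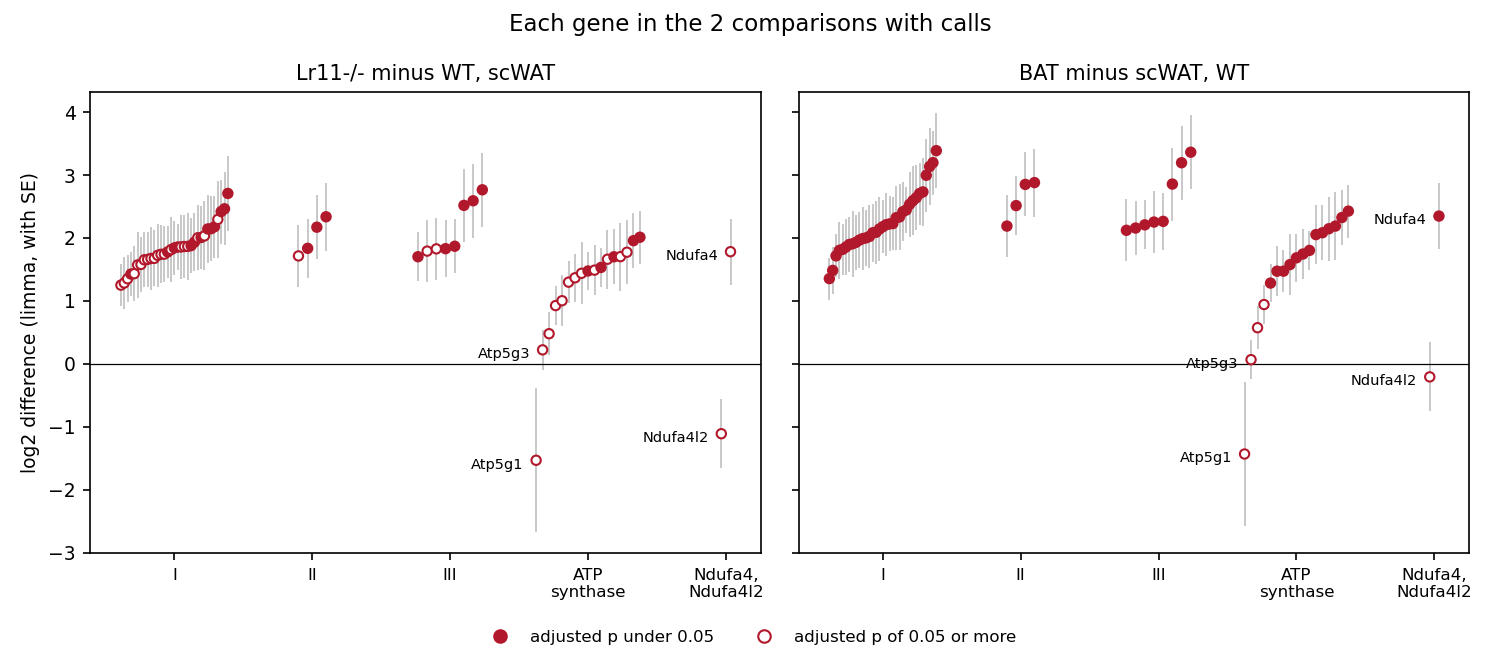
Log2 difference of every gene with its SE from limma (y axis), by complex (x axis), for Lr11-/- minus WT in scWAT on the left and BAT minus scWAT in WT mice on the right. Filled points passed an adjusted p of 0.05: 27 genes on the left and 59 on the right, all above 0, while Atp5g1 and Ndufa4l2 lay below 0 in both and were not called.

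The 27 calls depended on the fit and on which arrays entered, with 17 calls under the array name prefix as a block (array 1 of each group carries the first of 2 prefixes), 8 under the slide as a block, 3 with no scaling between arrays and 0 in a fit of the 6 scWAT arrays alone. Leaving out Lr11-/- scWAT array 1, WT scWAT array 3 or WT scWAT array 1 gave 60, 58 and 39 called genes. Leaving out WT scWAT array 2, Lr11-/- scWAT array 2 or 3 or any of the 6 BAT arrays gave 0. Over these leave-outs the median difference stayed between 1.32 and 2.25. Calls over all tested probes changed with the arrays too, from 1066 higher and 588 lower with all 12 to 7329 in either direction on the second-prefix arrays. Without such counts for each setting, the changes in calls cannot be read as particular to the 64 genes. With all 5 arrays high in muscle markers left out, an alternative chosen after seeing the data, 54 genes were called higher and 1 lower, with a median of 2.63. There 2349 of all tested probes were called higher and 1212 lower.

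**Figure D3:**
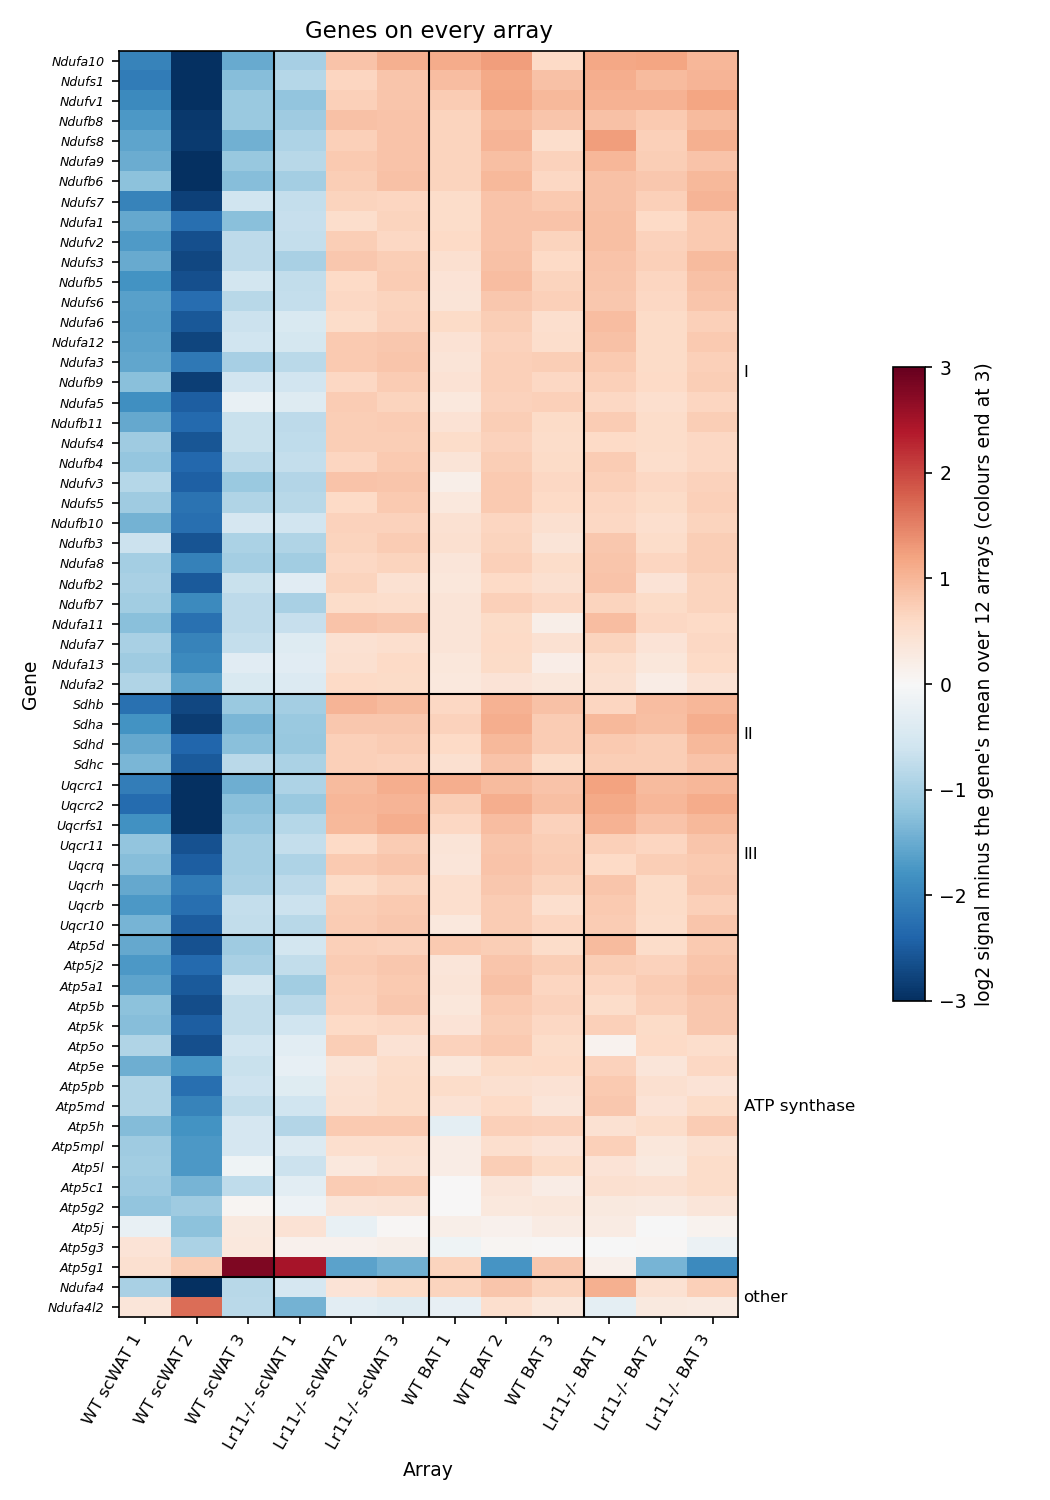
Log2 signal of 63 of the 64 genes (rows, by complex and then by depot difference) on the 12 arrays (columns), each minus the gene's own mean over the 12, with colours ending at 3. Most rows are low on the 3 WT scWAT arrays and Lr11-/- scWAT array 1 and high on Lr11-/- scWAT arrays 2 and 3 and all BAT arrays, whereas the Atp5g1 row is highest on WT scWAT array 3 and Lr11-/- scWAT array 1.

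The c subunit genes departed from the rest of the ATP synthase. Atp5g1 read 5.01, 5.28 and 7.35 in WT scWAT, 7.02, 2.93 and 3.10 in Lr11-/- scWAT, 5.22, 2.78 and 5.34 in WT BAT and 4.69, 3.16 and 2.63 in Lr11-/- BAT. Within each group the arrays high in muscle markers were the highest, and the groups overlapped in every comparison. Its difference between genotypes in scWAT was -1.53 ± 1.14 (adjusted p = 0.41) and between depots in WT mice -1.43 ± 1.14 (adjusted p = 0.375), so neither was called. On the 7 arrays low in muscle markers Atp5g1 read 5.01 and 5.28 in WT scWAT, 2.93 and 3.10 in Lr11-/- scWAT, 2.78 in WT BAT and 3.16 and 2.63 in Lr11-/- BAT. Fitted on those 7 arrays, a choice made after seeing the data, its difference for Lr11-/- minus WT in scWAT was -2.13 ± 0.28 (SE). For BAT minus scWAT in WT mice it was -2.36 ± 0.34, with the lone WT BAT array assumed to vary like the other groups. On the first-prefix arrays, 1 per group, the genotype difference in scWAT was 2.0, so the direction depended on the arrays taken. The part of muscle in the Atp5g1 levels on the 5 arrays high in muscle markers was not tested.

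Atp5g2 read 6.32, 6.43 and 7.56 in WT scWAT against 7.35, 7.86 and 7.88 in Lr11-/- scWAT, with 7.51, 7.80 and 7.83 in WT BAT. WT scWAT array 3 lay inside the range of both other groups. Its difference was 0.93 ± 0.31 between genotypes in scWAT (adjusted p = 0.096) and 0.94 ± 0.31 between depots (adjusted p = 0.0504), so neither was called. On the 7 arrays low in muscle markers, with 1 array in WT BAT, these differences were 1.49 and 1.43. Atp5g3 read 7.70, 6.34 and 7.62 in WT scWAT, 7.43, 7.42 and 7.47 in Lr11-/- scWAT, 7.18, 7.35 and 7.33 in WT BAT and 7.28, 7.33 and 7.11 in Lr11-/- BAT, so that WT scWAT array 2 alone stood away from a narrow band. Its difference between genotypes in scWAT was 0.22 with a 95% interval of -0.47 to 0.92, and between depots 0.067 with an interval of -0.63 to 0.76. Atp5j, coupling factor 6 of the stalk, read 5.72, 4.71 and 6.25 in WT against 6.39, 5.73 and 5.99 in Lr11-/- scWAT, a difference of 0.48 (interval -0.28 to 1.24), with 0.57 (interval -0.18 to 1.33) between depots. The inhibitor of ATP hydrolysis, Atpif1, whose symbol falls outside the rule, read 5.26, 6.44 and 4.60 in WT scWAT against 4.57, 4.32 and 4.32 in Lr11-/- scWAT, each Lr11-/- array below each WT array, a difference of -1.03 ± 0.38 (adjusted p = 0.115), and fell between depots in WT mice by 1.52 on the log2 scale (adjusted p = 0.0175).

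**Figure D4:**
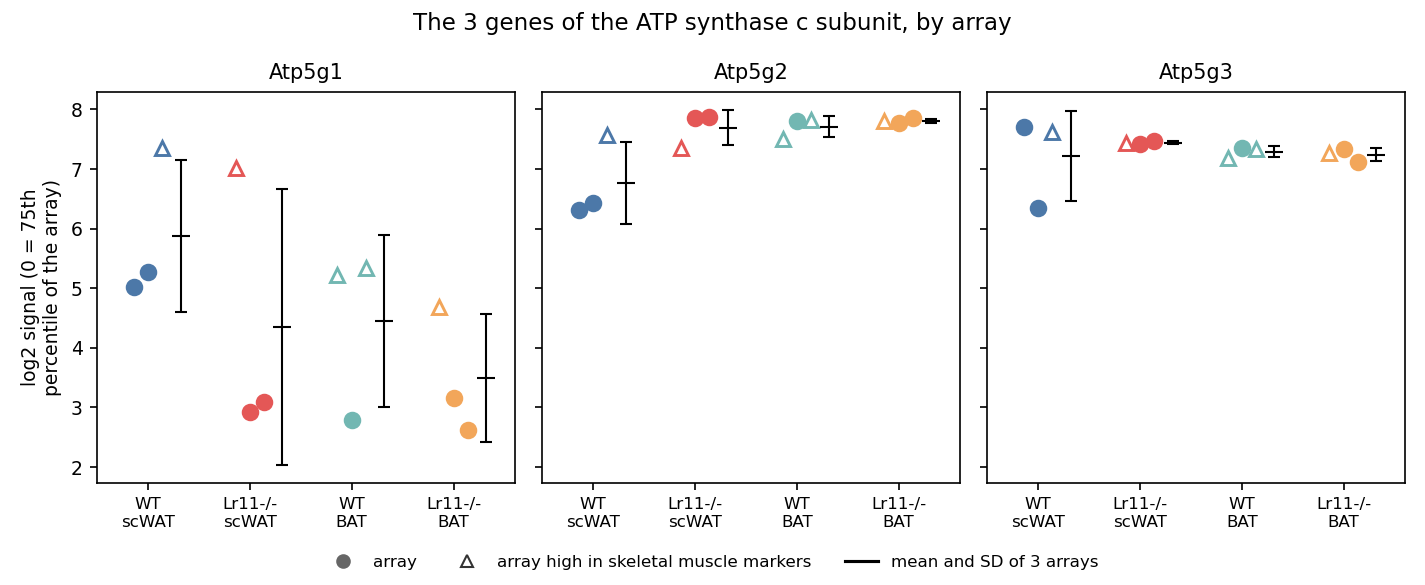
Log2 signal of Atp5g1, Atp5g2 and Atp5g3 (y axis, 0 is the 75th percentile of the array) on each array of the 4 groups (x axis), with the mean and SD of 3 arrays in black and open triangles for the 5 arrays high in skeletal muscle markers. In Atp5g1 the triangles are the highest points of every group, and the filled circles lie at 5.01 and 5.28 in WT scWAT and between 2.63 and 3.16 in the other groups.

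Ndufa4 and its paralog Ndufa4l2 were ordered differently over the arrays. Ndufa4 read 5.98, 3.89 and 6.12 in WT against 6.45, 7.38 and 7.52 in Lr11-/- scWAT, without overlap (1.78 ± 0.52, adjusted p = 0.0682), and rose between depots in WT mice by 2.35 ± 0.52 (adjusted p = 0.0121). Ndufa4l2, known as a hypoxia-induced gene, read 2.23, 3.55 and 1.07 in WT against 0.46, 1.57 and 1.49 in Lr11-/- scWAT (-1.11 ± 0.55, adjusted p = 0.216), with its highest value on WT scWAT array 2, the array on which most other genes were lowest.

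Between depots of WT mice the median differences were larger, and nearly every gene was called. In BAT 59 of 64 genes were higher than in scWAT and 0 were lower, with a median log2 difference of 2.15 (4.45-fold), where 15.1% of all tested probes were called higher and their median was 0.048. The calls were 33 of 33 in complex I, 4 of 4 in complex II, 8 of 8 in complex III and 13 of 17 in the ATP synthase, with medians of 2.18, 2.68, 2.26 and 1.68. The genes without a call were Atp5g1, Atp5g2, Atp5g3, Atp5j and Ndufa4l2, and in the same 59 of 64 genes that were called the depots did not overlap, against 23.5% of all tested probes. In the same comparison the 7 macrophage markers had a median of -2.11, with 5 called lower, where 3049 of all 32118 tested probes were called lower. The 8 adipocyte markers had a median of 1.54, with 3 called higher, where 15.1% of all tested probes were called higher. The part of these markers in the depot difference was not tested.

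Ndufa10, at 6.69, 6.83 and 6.18 on the WT BAT arrays, differed most, by 3.39 ± 0.60 (10.5-fold, adjusted p = 0.00544). Uqcrc1 read 7.22, 7.09 and 7.0 in WT BAT, which was 3.36 ± 0.59 above WT scWAT (10.3-fold, adjusted p = 0.0052). In both genes the WT BAT arrays lay closer to each other than the WT scWAT arrays did. Of the core of complex I, Ndufs1 rose by 3.20 ± 0.51 and Ndufv1 by 3.13 ± 0.61, with adjusted p of 0.00429 and 0.00738. In complex II the catalytic Sdha and Sdhb rose by 2.85 ± 0.51 and 2.88 ± 0.54 and the anchors Sdhc and Sdhd by 2.19 ± 0.49 and 2.51 ± 0.47, with adjusted p from 0.0056 (Sdha) to 0.0124 (Sdhc). Uqcrc2 rose by 3.20 ± 0.59 and Uqcrfs1 by 2.86 ± 0.58 (adjusted p = 0.0064 and 0.00845). In complex I the smallest differences were those of Ndufa2, 1.35 ± 0.33 (adjusted p = 0.0171), and Ndufa13, 1.48 ± 0.38 (adjusted p = 0.019), and in complex III those of Uqcr10, 2.12 ± 0.49, and Uqcrb, 2.16 ± 0.43. In the ATP synthase Atp5d (2.43 ± 0.42) and Atp5j2 (2.32 ± 0.43) differed most, and Atp5a1 and Atp5b rose by 2.19 ± 0.54 and 2.15 ± 0.51 (adjusted p = 0.0173 and 0.0149). Leaving out WT BAT array 2 reduced the calls to 37, the slide as a block to 33 and leaving out the 5 arrays high in muscle markers to 41, the last with a median of 2.74.

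ATP synthase genes had smaller median differences than the genes of complexes I, II and III in both comparisons, a gap that was not tested. The median of its genes minus that of the complex I genes on the same array was 0.34, 0.70 and 0.77 in WT scWAT, 0.50, -0.25 and -0.18 in Lr11-/- scWAT, -0.10, -0.16 and -0.17 in WT BAT and -0.04, -0.18 and -0.15 in Lr11-/- BAT. This quantity has no meaning as a level, since the probes differ, and a different gene can be the median on each array. With all ATP synthase genes it was 0.34 or more on the 3 WT scWAT arrays and Lr11-/- scWAT array 1. It was below 0 on the other 8. On Lr11-/- scWAT array 1 the ATP synthase median, 7.02, was the value of Atp5g1. Without the 3 c subunit genes the split did not hold. The ATP synthase median was then 8.04 against 7.84 for complex I on Lr11-/- BAT array 1. That gap was wider than on WT scWAT array 3, at 6.60 against 6.44. Against complex III the subtraction with all ATP synthase genes gave 0.14, 0.034 and 0.32 in WT scWAT against 0.12, -0.78 and -0.76 in Lr11-/- scWAT, and values from -0.57 to -0.79 in BAT.

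In BAT no gene of the 4 complexes was called between genotypes. Of the 64 genes 0 were called between Lr11-/- and WT BAT by limma, 0 had an unadjusted p under 0.05, and 0.0125% of all tested probes were called. The median log2 difference was 0.099 over the 64 genes against 0.047 over all tested probes, with 0.11, 0.092, 0.1 and 0.088 for complexes I, II, III and the ATP synthase. The 95% interval lay within 1 log2 unit of 0 for 16 of the 64 genes, and for the rest it also held differences larger than 1 log2 unit. Sdha read 7.53, 7.95 and 7.61 in WT BAT and 7.82, 7.75 and 7.93 in Lr11-/- BAT (difference 0.14, interval -0.98 to 1.27). Atp5b read 9.43, 9.87 and 9.75 against 9.62, 9.80 and 9.89 (difference 0.088, interval -1.04 to 1.22). Only in Ndufa11 and Atp5c1 did every Lr11-/- BAT array lie above every WT BAT array, 2 of 64 genes where 7.75% of all tested probes did so, with differences of 0.34 and 0.29 and an exact permutation p of 0.1 each, the smallest that 3 against 3 arrays allow.

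Lr11-/- scWAT was set against both BAT groups to see how far its transcript levels lay from those of brown fat. Between BAT and scWAT of Lr11-/- mice 0 of the 64 genes were called and 0 had an unadjusted p under 0.05, with 0.0311% of all tested probes called, and the median difference was 0.48. By complex the medians were 0.52, 0.67, 0.53 and 0.33. The BAT arrays all lay above the scWAT arrays in 8 of 64 genes (12.5%), near the share of 13.4% of all tested probes. Among the 8 were Ndufs1 (0.82, interval -0.31 to 1.94), Ndufv1 (0.97, interval -0.38 to 2.32) and Sdha (0.82, interval -0.30 to 1.94). The BAT arrays all lay below the scWAT arrays in 1 gene, Atp5g3, against 9.69% of all tested probes. Lr11-/- scWAT minus WT BAT gave a median of -0.39 with 0 calls, 0 unadjusted p under 0.05 and 0.0934% of all tested probes called, and the scWAT arrays all lay lower in Ndufs1, Ndufa4 and Ndufa4l2, 3 of 64 genes against 9.62% of all tested probes. Both comparisons share the Lr11-/- scWAT arrays.

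Lr11-/- scWAT arrays 2 and 3 lay near the BAT arrays and array 1 lay nearer to WT scWAT. For complex I the medians were 6.52, 7.85 and 7.87 on Lr11-/- scWAT arrays 1 to 3, against 7.61, 7.87 and 7.65 on the WT BAT arrays, and for complex II they were 5.86, 7.75 and 7.76 against 7.63, 8.03 and 7.75. Array 1 was measured with an array of each other group under a shared array name prefix, and the other 8 arrays carried another prefix. Within the first prefix, with 1 array per group and no test, the genotype difference in scWAT had a median of 0.67 and was above 0 in 59 of 64 genes. Within the second, with 2 arrays per group, the median was 2.34, above 0 in 62, and 56 genes were called higher. There 4990 of all 32118 tested probes were called higher, against 1066 with all arrays. The depot difference in WT mice was 1.82 and 2.29 within the prefixes, whereas in Lr11-/- mice it was 1.53 and -0.014. Atp5g1 changed direction between them, at 2.0 in the first and -3.30 in the second for Lr11-/- minus WT in scWAT. Brown fat markers moved with the same arrays: Ucp1 had log2 signals of -4.43, -4.35 and 3.09 on the WT scWAT arrays, 4.57, 9.94 and 10.22 in Lr11-/- scWAT and 9.61, 10.21 and 9.95 in WT BAT, and the summed signal of 10 brown or beige markers was 29.5, 4.29 and 297 in WT scWAT, 453, 3867 and 4144 in Lr11-/- scWAT and 2965 to 4014 in BAT. Zic1, a marker of the classical brown depot, read -3.61, -3.60 and -2.82 in Lr11-/- scWAT against -0.55, 1.66 and 1.49 in WT BAT and 0.77, -0.29 and 1.37 in Lr11-/- BAT. In such bulk samples fewer cells of a type and less RNA per cell cannot be told apart, and the part of these markers in the differences was not tested.

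The genotype effect in scWAT minus that in BAT had a median of 1.68 over the 64 genes against 0.012 over all tested probes. By limma 0 genes passed an adjusted p of 0.05, as did 0% of all tested probes, although 53 of 64 had an unadjusted p under 0.05 where 10.9% of all tested probes did. Uqcrc1 had 2.68 ± 0.83 (adjusted p = 0.406) and Ndufs1 2.38 ± 0.72 (adjusted p = 0.402), so the depots were not shown to differ in their response to genotype. Leaving out Lr11-/- scWAT array 1 gave 21 called genes, with calls over all tested probes in that fit not given here. The second-prefix arrays alone gave 0 called genes, where 900 of all tested probes were called.

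Other genes of oxidative phosphorylation were taken from lists outside the rule. The complex I subunits outside the rule, Ndufc1, Ndufc2 and Ndufab1, differed by 2.11, 1.34 and 2.23 between genotypes in scWAT, with Ndufc1 called, and all 3 were called higher in WT BAT than in WT scWAT. Of 16 genes of cytochrome c, cytochrome c1 and complex IV, 8 rose in Lr11-/- scWAT and 0 fell (median 1.86), and 15 rose between depots (median 2.25), where 3.32% and 15.1% of all tested probes were called higher. The exception between depots was Cox6a2, a heart and muscle isoform, which read -0.69, -0.86 and 8.49 in WT scWAT against 8.0, 3.25 and 2.22 in Lr11-/- scWAT and was highest on the 2 scWAT arrays high in muscle markers. Of 25 tested assembly factors, 8 rose in Lr11-/- scWAT (median 1.28) and 20 between depots (median 1.65), against the same shares of all tested probes, among them Uqcc1, a complex III factor, by 2.32 ± 0.48 in scWAT (adjusted p = 0.0384). Of 10 regulators of these genes, 8 had a difference above 0 between genotypes in scWAT, with a median of 0.77. Only Ppargc1a, the coactivator of mitochondrial biogenesis, was called, rising by 4.51 ± 0.92 (adjusted p = 0.0364), where 3.32% of all tested probes were called higher. Of the factors on this list with DNA elements among the 4 motifs named above, Nrf1 and Yy1 differed by -0.41 and 0.13 (adjusted p = 0.19 and 0.707). Esrra, Esrrg and Gabpa, whose ERR and ETS/GABP elements are also among them, were not called, and their differences are not given here. Of the ADP/ATP carriers, Slc25a4 and Slc25a5 differed by 0.82 and 1.4 in scWAT (adjusted p = 0.496 and 0.148). Of 3 other mitochondrial genes, Tomm20, Vdac1 and Cs, 0 were called in scWAT, where 3.32% of all tested probes were called higher. Tomm20, an import receptor of the outer mitochondrial membrane, differed least, by 0.14 (interval -0.40 to 0.67). Citrate synthase, Cs, differed most, by 2.24 (interval 0.85 to 3.63), and the median of the 3 was 0.87.

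The start-site windows were searched for 4 motifs, which the rule did not use, and 26 of 53 genes with a window (49.1%) held at least 1 of them, against 12.3% of all genes. A window was given for 53 of the 64 genes, which lay with the rest on 19 chromosomes with at most 6 on any of them. The NRF-1 core was found in 19 of 53 genes (35.9%), 7 of 15 in the ATP synthase and 8 of 29 in complex I, against 7.03% of all 27025 genes with a window of this length. The YY1 element was found in 6 (11.3%, against 1.64%), the ETS/GABP element in 4 (7.55%, against 4.31%) and the ERR element in 2, Atp5g3 and Sdhd (3.77%, against 0.466%). The median log2 difference in scWAT was 1.68 over the 19 genes with the NRF-1 core and 1.82 over the 34 without it, and between depots 2.0 and 2.21. Base composition of the windows was not matched, and a match of letters does not show that a factor binds.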

How the data were processed

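Total RNA of scWAT and BAT was labelled with Cy3 and read on 12 one-colour Agilent mouse arrays, 3 for each of 4 groups formed from the tissue and genotype labels. The authors deposited the scanner intensity of each spot from Agilent Feature Extraction 10.10.1.1 (per the file headers, which also name mm9 for the array design), background-subtracted and detrended within each array, not scaled between arrays, and with flags for dim, saturated and outlier spots. A deposited series-wide table repeats these intensities. Here, control spots and outlier spots (128 to 181 per array) were left out, and log2 intensity minus the 75th percentile of each array (intensity 331 to 552) was averaged over the spots of a probe. Probes were tested if every array of some group had them well above background, 32118 in all, by limma 3.58.1 in R 4.3.3 (lmFit, then eBayes, 1 mean per group, all 12 arrays), with Benjamini-Hochberg adjustment over all of them and a threshold of 0.05. RefSeq accessions named 27235 of the 28685 probes that carry one, and a gene was read from the probe with the highest mean. The gene table and start-site windows are RefSeq's for GRCm38.p6, another build than the array's, so probe coordinates were not used.

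The members, lists and tests were chosen with earlier results of these data known. Genes were named by role (the core of complex I, all of complex II, the core and Rieske proteins of complex III, the F1 alpha and beta and the c subunit genes), as the 2 with the largest and the 2 with the smallest difference in complexes I and III and the ATP synthase in each comparison with calls, and as any called against its complex; other names were chosen after their values were seen, and 1 gene of complex I, kept in all counts and medians, is not reported here by name. Numbers of replicates follow accession order and pair nothing. Array names have 2 prefixes, the first on replicate 1 of each group, and 3 slides hold the first-prefix scWAT arrays, the first-prefix BAT arrays and the other 8 arrays. The fit was tested on simulated data with known changes. Array number and signal over background limit the precision. Figures used Python 3.11.15 and matplotlib 3.10.9.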

Additional observations from a re-analysis of the deposited data

How the results depend on the processing

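Of 318 comparisons of a count of called genes or a median with its value under an alternative, 287 stayed within the limits set for them and 31 moved. A median stayed if it moved by less than the spread between arrays of a group. A count of 0 that remained 0 also counted as having stayed, so the tally does not measure how firm the calls were. For the 26 named genes, 3857 of 4212 differences stayed on their side of the threshold or, untested, within their error, 193 lost a call, 62 gained one and 100 moved with no test. Of the 4212, 169 changed sign, with neither value called. For Lr11-/- minus WT in scWAT (27 called, median 1.78), calls fell to 3 with no scaling between arrays, 17 with the array name prefix as a block, 8 with the slide as a block, and 0 both with no filter on dim probes, where 55681 probes shared the adjustment, and with only the 6 arrays of the comparison. They rose to 56 on the second-prefix arrays, where calls over all tested probes rose as well (4990 higher and 2339 lower, against 1066 higher with all arrays), and to 55 without the 5 arrays high in muscle markers (2349 higher and 1212 lower over all tested probes), where the median was 2.63, against 0.67 on the first-prefix arrays. For BAT minus scWAT in WT mice (59 called) the slide as a block gave 33, and the median was 2.74 without the arrays high in muscle markers. On the first-prefix arrays the median was 0.30 for Lr11-/- minus WT in BAT, 1.53 for BAT minus scWAT in Lr11-/- mice, -1.15 for Lr11-/- scWAT minus WT BAT and 0.38 for the difference between the genotype effects. That difference had a median of 2.32 on the second-prefix arrays and 2.71 without the arrays high in muscle markers, and Lr11-/- minus WT in BAT had -0.084 there. The cause of these shifts was not tested.

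Leaving out single arrays, the called genes ranged from 0 to 60 in Lr11-/- minus WT in scWAT, from 37 to 60 in BAT minus scWAT in WT mice and from 0 to 21 in the difference between the genotype effects, and the medians from 1.32 to 2.25, from 1.65 to 2.55 and from 1.20 to 2.16. The other 3 comparisons had 0 called genes throughout, with medians from 0.014 to 0.18 in Lr11-/- minus WT in BAT, from 0.041 to 0.75 in BAT minus scWAT in Lr11-/- mice and from -0.65 to 0.071 in Lr11-/- scWAT minus WT BAT. The share of all tested probes called without each array is not given here. Background correction by normexp on the median signals, median scaling, the prefixes taken alone and leaving out the arrays high in muscle markers were chosen after seeing the data, and normexp on mean signals was not run because the files used here hold medians. No paired analysis was possible because the labels carry no replicate numbers. All 64 genes were well above background on all 12 arrays.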
